A study of Mus musculus with 8 samples.

Results

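The complement factors that fat tissue makes were followed as 9 genes chosen by name: Cfd, C3, C4b, C2, Cfb, Cfp, C1s1, C1ra and Serping1. Each has 1 line among the 30387 genes of the table, and all 9 were among the 18800 genes that passed the filter on low values (at least 5 on average across all 8 libraries). RNA had been sequenced from white adipocytes isolated from the epididymal fat pad of mice, in 4 groups with 2 libraries each. Ad-Yap/Taz-KO mice (KO) carry floxed Yap and Taz alleles that are deleted by Cre recombinase under the adiponectin promoter (Adipoq-Cre), which is active in adipocytes, and WT mice were their wild-type littermates. Mice of each genotype ate a standard diet (SD, the normal chow of the sample labels) or a high-fat diet (HFD) for 4 weeks, starting in week 5 of age by the description of the data set, whereas the study's methods give a slightly later age. The groups are therefore WT on SD, KO on SD, WT on HFD and KO on HFD, with no further allele or agent named for any of them. The sample titles describe each library as a mouse. P-values rest on a spread between libraries that is pooled over all 4 groups, not on the 2 libraries of a group alone.

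Complement is a chain of plasma proteases that ends in tagging or lysing a target. The classical route starts when C1q binds a surface and activates the proteases C1r and C1s, which cleave C4 and C2 to form an enzyme that cleaves C3, while in the alternative route factor B (Cfb), cut by factor D (Cfd) and held together by properdin (Cfp), does the same to C3, and the C1 inhibitor (Serping1) blocks C1r and C1s. The liver supplies most of these proteins to plasma, but factor D, also named adipsin, comes mainly from adipocytes, and C3 and factor B are made in fat as well.

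Values are normalized counts, which are reads on the exons of a gene divided by a size factor for the library. They summed to between 14890264 and 20994246 per library, and the spacing of low values gave between 13.99 and 22.32 M reads on genes. The libraries held adipocyte RNA in quantity: all 12 markers of the adipocyte list were above the filter, and Adipoq, which encodes adiponectin, lay between 13284 and 54830. Wwtr1, the gene of TAZ, was lower in KO mice on both diets, at 2441 and 1957 against 5594 and 4743 on SD and at 2060 and 2707 against 7121 and 6807 on HFD. Yap1 was lower by 0.71 on the log2 scale on SD (adjusted p = 0.024) and differed by -0.42 on HFD, which did not pass (adjusted p = 0.059). Exons outside the deleted part count in both genes, and the source of the counts that remain in KO mice was not tested. The 2 WT HFD libraries were unusually alike, with a squared difference of 5.87 times the counting noise in genes of 1000 to 5000 reads against 27.82 to 71.96 in the other groups. Results were therefore also computed with these libraries averaged to 1 sample. Scaling all libraries to the same total in place of the authors' size factors moved the median log2 difference of all genes from 0.09 to 0.47 for KO against WT on HFD and from -0.08 to -0.48 for HFD against SD in WT mice, so that small differences in these comparisons depend on the scaling.

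Divided by exon length, the 9 genes reached from the top of the transcriptome, where Cfd stood, to its middle. In WT mice on SD, Cfd reached 1.234e+05 normalized counts per kb of exon and ranked 2 among 18750 genes with a known exon length. C4b followed with 3959 and C3 with 3855 normalized counts per kb (ranks 84 and 89), and these neighbours overlapped between libraries before division, at 19119 and 25975 for C4b against 22251 and 17398 for C3. C1s1 had 652 normalized counts per kb, Serping1 526 and C1ra 252. C2, Cfp and Cfb stood lower with 118, 94.8 and 45.7 normalized counts per kb (ranks 4734, 5626 and 8777), and of these only Cfb was near the middle of the ranking. The ranks of C2 and Cfb are uncertain, because another annotated gene covers part of their exons, as described further on. The order changed with genotype and diet: in KO mice on HFD C3 stood at 6370 and C4b at 1050 normalized counts per kb. On average Cfp at 311.6 stood above C1ra at 301.6 there, but the libraries of that group differed in this order. Cfd alone took 0.723% and 0.728% of all normalized counts in WT mice on SD and 0.113% and 0.111% in KO mice on HFD.

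**Figure D1:**
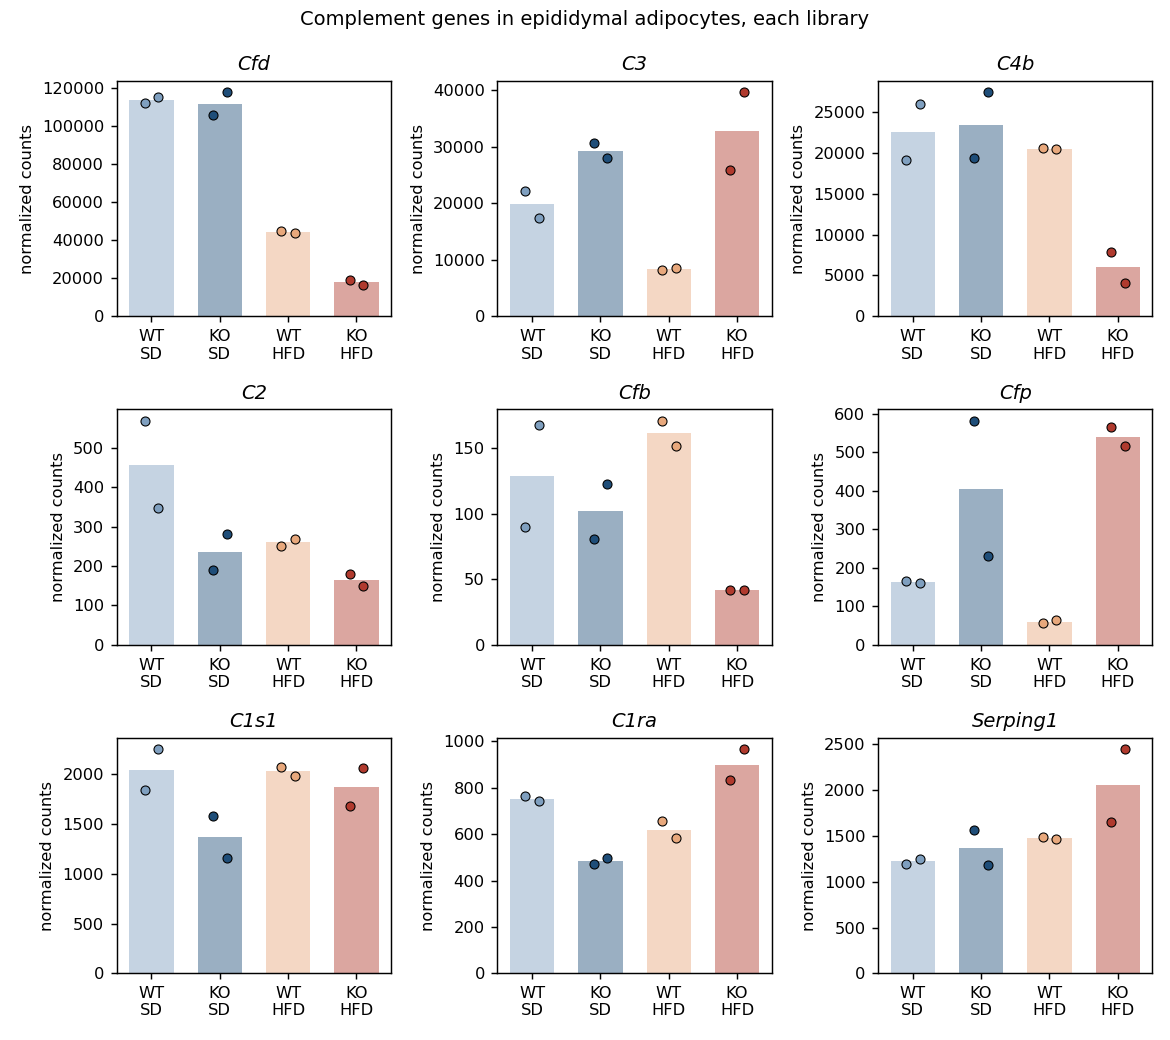
Normalized counts of the 9 complement genes (vertical axis, from 0, its own scale for each gene) in the 4 groups, with 1 point per library and a bar at the mean of the 2. Cfd falls to between 16577 and 19352 in KO mice on HFD, where C3 stands at 25894 and 39632 and Cfp at 566 and 516.

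In the GRCm38 build Cfd (ENSMUSG00000061780) is on chromosome 10 from 79890853 to 79892656 and C3 (ENSMUSG00000024164) on chromosome 17 from 57203970 to 57228136. C4b (ENSMUSG00000073418, 34728380 to 34743882), Cfb (ENSMUSG00000090231, 34856374 to 34862518) and C2 (ENSMUSG00000024371, 34862604 to 34898265) stand close together on chromosome 17, in the major histocompatibility region. Cfp (ENSMUSG00000001128) is on chromosome X from 20925454 to 20931555. C1ra (ENSMUSG00000055172, 124512405 to 124523443) and C1s1 (ENSMUSG00000038521, 124530345 to 124542359) are neighbours on chromosome 6, and Serping1 (ENSMUSG00000023224) is on chromosome 2 from 84765387 to 84775444. All values are sums over the exons of a gene.

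RefSeq promoter windows, from 250 bases before to 50 bases after a start site in GRCm38.p6, were at hand for 5 of the 9 genes (Cfd, C3, Cfp, C1s1 and C1ra, with 6 windows among them). The bases before the start site are shown for Cfd, C3 and Cfp because these 3 genes showed the largest differences between groups among those 5, and they are written 5′ to 3′ on the strand of the gene.
Cfd, 250 bases, chr10:79890603-79890852, plus strand: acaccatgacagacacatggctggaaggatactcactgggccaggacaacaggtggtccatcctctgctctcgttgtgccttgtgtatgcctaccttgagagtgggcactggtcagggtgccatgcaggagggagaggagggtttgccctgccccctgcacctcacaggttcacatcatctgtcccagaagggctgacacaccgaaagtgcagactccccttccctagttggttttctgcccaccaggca
C3, 250 bases, chr17:57228137-57228386, minus strand: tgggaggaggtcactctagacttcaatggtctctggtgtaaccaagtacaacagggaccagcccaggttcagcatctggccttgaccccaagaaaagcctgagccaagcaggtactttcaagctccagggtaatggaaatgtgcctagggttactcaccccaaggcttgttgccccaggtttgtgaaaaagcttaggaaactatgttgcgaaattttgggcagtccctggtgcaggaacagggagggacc
Cfp, 250 bases, chrX:20931556-20931805, minus strand: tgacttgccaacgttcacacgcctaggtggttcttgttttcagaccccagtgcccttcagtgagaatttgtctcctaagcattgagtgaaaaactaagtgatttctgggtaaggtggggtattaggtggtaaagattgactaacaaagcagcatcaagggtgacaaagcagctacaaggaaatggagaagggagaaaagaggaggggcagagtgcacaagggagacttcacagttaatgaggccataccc

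The windows were searched on both strands for GGAATG, the core letters bound by the TEAD partners of YAP and TAZ (CATTCC on the other strand), for TTCNNNGAA of STAT factors and for a core motif of NF-kappaB, and no match was found in the windows of Cfd, C3 and Cfp. The TEAD letters are in 14.7% of all 32851 promoter windows, the STAT letters in 8.3% and the NF-kappaB letters in 1.47%. C1ra held CATTCC at -74 to -69 from its start site, whose first base counts as 0, and at 30 to 35 and 42 to 47 after it, and a STAT match at 32 to 40 that overlaps the first of the latter. That RefSeq start site lies inside the gene as the table places it. The C1s1 window of the more upstream start site held CATTCC at -221 to -216. Both upstream matches are shown with 12 bases on each side, the match in capitals. They were chosen because C1ra and C1s1 encode a protease pair and hold these letters, alone among the 5 genes with a window.
C1ra, chr6:124512535-124512564, plus strand: catcgcctcagcCATTCCccaaatggacca
C1s1, chr6:124542563-124542592, minus strand: ctcaaaattcccCATTCCccccttttgctc
A match is a description of the letters and no evidence of binding, and both genes are compared between genotypes further on.

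Some of these genes share sequence with others, which limits what their counts stand for, because reads over several genes or at several places had been left out by the authors. Of all 75-base windows of the transcripts, 22.7% of those of C4b occur in C4a, 40.1% of those of C1ra in C1rb and 13% of those of C1s1 in C1s2, and none of those of Cfd, C3, Cfp and Serping1 occur in another gene. C4a, the close copy of C4b, had a mean of 53.4 normalized counts and C1s2 one of 0.25. The annotated read-through gene Gm20547 covers 79.5% of the exon bases of Cfb and 42.8% of those of C2 on the same strand and has no line among the values used here. Whether reads there were counted to Cfb and C2 depends on an annotation that is not given in the sources used here, so the values of Cfb and C2 are uncertain. The antisense gene Gm16567 overlaps 18.4% of the exon bases of C1s1, and the strand setting of the counting was not stated.

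A gene was called when its adjusted p was at most 0.05 and its log2 difference, on the scale of log2(normalized count + 1), at least 0.59 in either direction. Loss of YAP and TAZ on HFD moved the complement genes in both directions: C3 and Cfp were higher and Cfd, C4b and Cfb lower in KO mice. These 5 of the 9 genes were called, where 32.2% of all genes tested were called, 17.1% as higher and 15.1% as lower. On SD none was called in the same comparison by limma (5 had an unadjusted p under 0.05), where 4.71% of all genes were. HFD lowered 3 genes in WT mice, Cfd, C3 and Cfp, and none rose (18% of all genes called, 8.74% higher and 9.22% lower). In KO mice HFD lowered Cfd and C4b and raised C1ra, where 1.07% of all genes were called, 0.383% higher and 0.691% lower. The median log2 difference of the 9 genes was -0.12, -0.03, -0.28 and 0.13 in these 4 comparisons, beside 0.09, -0.01, -0.08 and 0.03 for all genes.

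The effect of the genotype differed between the diets, by the interaction of genotype and diet, for 5 of the 9 genes (Cfd, C3, C4b, Cfp and C1ra), 3 upward and 2 downward, where 17.4% of all genes tested passed, 8.69% upward and 8.73% downward. The median of the interaction was 0.29 for the 9 genes beside 0.10 for all genes. None of these 5 calls held when both WT HFD libraries were averaged, where the adjusted p lay between 0.059 and 0.078 at unchanged sizes, nor without the first WT SD library, where it lay between 0.059 and 0.086.

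**Figure D2:**
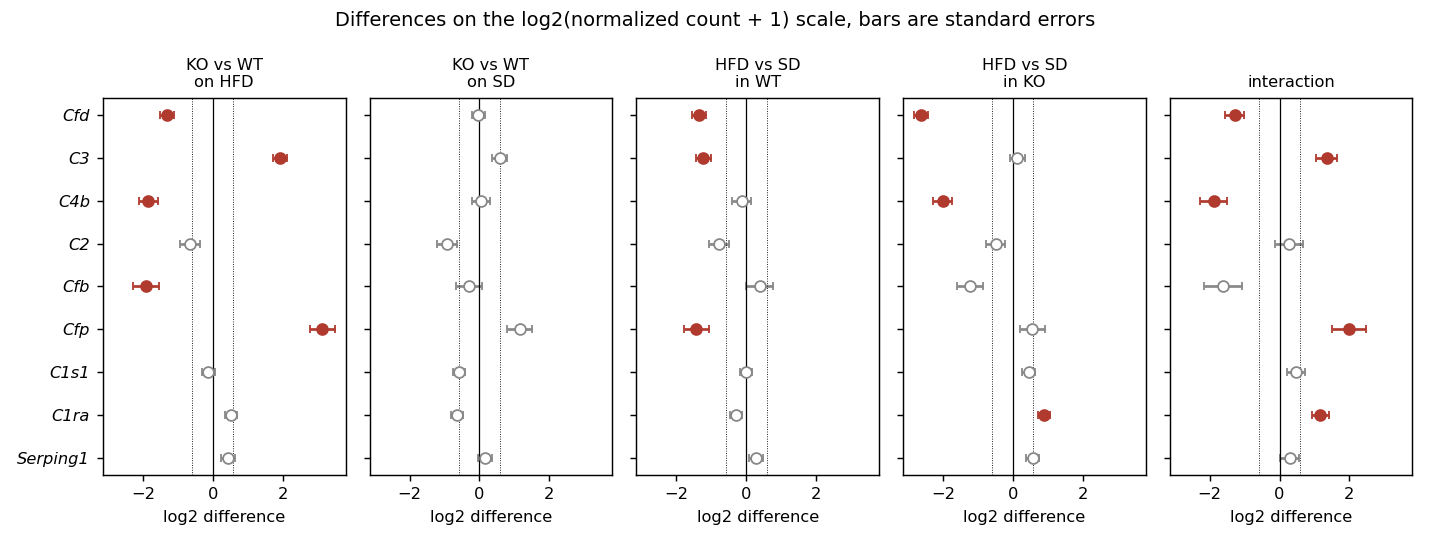
Log2 differences (horizontal axis, on the scale of log2 of the normalized count plus 1, bars show 1 standard error) of the 9 genes in the 4 comparisons and in the interaction of genotype and diet. Filled points are called, dotted lines stand at a difference of 0.59, and the panel for SD holds no filled point.

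Cfd, the protease that cuts factor B and the main complement product of adipocytes, fell in steps. It stood at 112117 and 115512 in WT mice on SD, at 105691 and 117774 in KO mice on SD, at 44882 and 44048 in WT mice on HFD and at 19352 and 16577 in KO mice on HFD. The genotypes overlapped on SD, while both HFD groups lay below every SD library and apart from each other. With HFD it fell by 1.36 on the log2 scale in WT mice (adjusted p = 0.0011) and it fell by 2.64 in KO mice (adjusted p = 0.00014). On HFD KO mice had 2.48-fold less than WT mice, a log2 difference of -1.31 with a standard error of 0.20 (adjusted p = 0.00029), against -0.03 on SD (adjusted p = 0.96), and the difference between the diets was -1.28 with a standard error of 0.28 (adjusted p = 0.011). Under quantile normalization the HFD difference between genotypes was -0.585, short of the limit for a call, and the difference between the diets was -0.46 and not called (adjusted p = 0.23), while the fit of the KO groups alone left the diet effect in these mice at an adjusted p of 0.091 (3.1e-06 to 0.091 over 11 alternatives).

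Cfb, the protein that Cfd cuts, also had its lowest values in KO mice on HFD. It measured 90 and 168 in WT mice on SD, 81 and 123 in KO mice on SD, 171 and 152 in WT mice on HFD and 42 in both KO libraries on HFD. Those last libraries lay below all others, and the WT range on SD overlapped the ranges of both remaining groups. On HFD it was 3.77-fold lower in KO mice, with a log2 difference of -1.92, a standard error of 0.38 and an adjusted p of 0.0021. No other comparison of Cfb was called, with -0.30 between genotypes on SD (adjusted p = 0.76), 0.39 for HFD in WT mice (adjusted p = 0.50), -1.23 for HFD in KO mice (adjusted p = 0.14) and -1.62 for the interaction (adjusted p = 0.055). The interaction was called with a filter at 50 (adjusted p = 0.045) and without the first KO library on SD (-1.92, adjusted p = 0.033).

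Cfp, properdin, which stabilizes the enzyme formed by C3b and factor B and is known as a product of myeloid cells, went the other way. Its values were 167 and 162 in WT mice on SD, 582 and 230 in KO mice on SD, 57 and 64 in WT mice on HFD and 566 and 516 in KO mice on HFD. Every KO library was above every WT library, and the 2 on SD lay far apart. On HFD the difference between genotypes was 3.14 on the log2 scale with a standard error of 0.35 (adjusted p = 3.1e-05), the largest among the 9 genes in that comparison. On SD it was 1.15 (adjusted p = 0.096), with 1.82 and a call (adjusted p = 0.0027) without the second KO library and 0.48 without the first. HFD lowered Cfp in WT mice by 1.43 (adjusted p = 0.015), a call that was lost with the WT HFD libraries averaged (adjusted p = 0.11), with no filter on low values (adjusted p = 0.069) and without any 1 of the 4 WT libraries (0.0052 to 0.11 over 11 alternatives). The effect of the genotype was 1.99 greater on HFD than on SD (standard error 0.50, adjusted p = 0.019), and from 1.32 to 2.66 greater with 1 library left out, where 5 of 8 such fits lost the call, as did the fit with no filter (adjusted p = 0.081).

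C3, the protein on which all routes meet, was lowest in WT mice on HFD. It stood at 22251 and 17398 in WT mice on SD, at 30583 and 28088 in KO mice on SD, at 8220 and 8611 in WT mice on HFD and at 25894 and 39632 in KO mice on HFD. The KO groups overlapped each other and both lay above the WT groups. HFD lowered C3 in WT mice by 1.23 on the log2 scale (adjusted p = 0.0029), a call that was lost with the WT HFD libraries averaged (adjusted p = 0.056, and 0.00066 to 0.056 over 11 alternatives) and without the first WT SD library, and the difference was 0.13 in KO mice (adjusted p = 0.82). On HFD C3 was 3.81-fold higher in KO mice, a log2 difference of 1.93 with a standard error of 0.21 (adjusted p = 2.5e-05), against 0.57 on SD, which was not called (adjusted p = 0.17). The interaction was 1.35 (standard error 0.30, adjusted p = 0.012).

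C4b, the source of C4 in the classical route, stood out in KO mice on HFD. Its libraries had 19119 and 25975 normalized counts in WT mice on SD, 19277 and 27354 in KO mice on SD, 20496 and 20466 in WT mice on HFD, and 7820 and 4138 in KO mice on HFD. The first 3 groups overlapped, and the last lay below all of them with 1.89-fold between its libraries. KO mice had 3.6-fold less on HFD, a log2 difference of -1.85 with a standard error of 0.27 (adjusted p = 0.00026), against a difference of 0.04 on SD (adjusted p = 0.96). With HFD C4b fell by 2.01 in KO mice (adjusted p = 0.0068), which did not pass with no filter on low values (adjusted p = 0.16), in the fit of these 2 groups alone (adjusted p = 0.15, and 0.0025 to 0.16 over 11 alternatives) or without the second KO library on SD. The interaction was -1.89 (standard error 0.38, adjusted p = 0.0091). C3 and C4b thus stood in a ratio of 0.401 and 0.421 in WT mice on HFD and of 3.31 and 9.58 in KO mice on HFD, with 0.67 to 1.59 in the SD libraries.

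C2, the partner of C4 and the gene next to Cfb, was called in no comparison. It stood at 568 and 346 in WT mice on SD, at 191 and 280 in KO mice on SD, at 251 and 269 in WT mice on HFD and at 180 and 149 in KO mice on HFD. The groups did not overlap in any of the 4 comparisons, and the same holds for 69.6%, 45%, 65% and 42% of all genes in the order used above. The log2 differences were -0.66 and -0.94 between genotypes on HFD and SD (adjusted p = 0.088 and 0.09), and -0.77 and -0.50 between diets in WT and KO mice (adjusted p = 0.073 and 0.43). The difference in WT mice was called with libraries scaled to the same total (-1.18, adjusted p = 0.01) and under upper-quartile scaling (-0.90, adjusted p = 0.039), and it ranged from -1.13 to -0.41 with 1 library left out.

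C1ra and C1s1, the proteases of the C1 complex, differed less between groups. C1ra measured 763 and 741 in WT mice on SD, 473 and 497 in KO mice on SD, 656 and 583 in WT mice on HFD and 832 and 966 in KO mice on HFD. Its genotype difference pointed down on SD and up on HFD, with no overlap in either. The differences were -0.63 on SD (adjusted p = 0.056) and 0.53 on HFD, where the adjusted p of 0.028 passed but the size stayed under 0.59, so neither was called. The interaction was 1.17 (standard error 0.24, adjusted p = 0.0096), and the rise with HFD in KO mice was 0.89 (adjusted p = 0.032). That rise lost its call with averaged WT HFD libraries (adjusted p = 0.11) and under 3 more of 11 alternatives, and in 6 of the 8 fits that left out 1 library, where its size ranged from 0.78 to 0.99. The SD difference was called with a filter at 50 and under upper-quartile and quantile scaling, and the HFD difference under all 3 other scalings.

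C1s1 had 1834 and 2248 in WT mice on SD, 1577 and 1160 in KO mice on SD, 2068 and 1983 in WT mice on HFD and 1680 and 2057 in KO mice on HFD. Only the KO group on SD lay below the others, with a difference of -0.59 from WT mice (adjusted p = 0.11), and no comparison was called. That difference was -0.81 and called (adjusted p = 0.043) without the first KO library on SD and -0.36 without the second. The HFD difference between genotypes was -0.12 (adjusted p = 0.64) and had the opposite sign, 0.26, with libraries scaled to the same total. The ratio of C1ra to C1s1 was 0.317 and 0.294 in WT mice on HFD against 0.495 and 0.47 in KO mice on HFD, and it lay between 0.3 and 0.428 on SD.

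Serping1, the inhibitor of both proteases, had its highest values in KO mice on HFD but passed in no comparison. The values were 1192 and 1252 in WT mice on SD, 1559 and 1186 in KO mice on SD, 1486 and 1471 in WT mice on HFD and 1657 and 2446 in KO mice on HFD. The genotypes overlapped on SD and not on HFD. The difference on HFD was 0.45 with a standard error of 0.20 (adjusted p = 0.099), and it was called at the same total (0.83) and under quantile normalization. Without the first KO library on HFD it was 0.73 and called (adjusted p = 0.011), and without the second it was 0.16. The difference between diets in KO mice, 0.57 (adjusted p = 0.19), was called without that first library (0.85, adjusted p = 0.029).

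Markers of the cell types in these preparations moved with several of these results, and in bulk RNA fewer cells of a type and less RNA per cell cannot be told apart. The counts of markers called are to be read against all genes tested. Of these, 17.1% were called higher and 15.1% lower in KO mice on HFD. On SD 4.71% were called in either direction, and for HFD in WT mice 8.74% higher and 9.22% lower. The 12 adipocyte markers had sums of 265655 and 293883 in WT mice on SD, 212445 and 312316 in KO mice on SD, 498446 and 490981 in WT mice on HFD and 232329 and 115651 in KO mice on HFD. On HFD 11 of the 12 were lower in KO mice (median -1.54), or 10 with the WT HFD libraries averaged, on SD none was called (median -0.11), and with HFD in WT mice 2 rose and none fell (median 0.66), or none and none with the WT HFD libraries averaged. The fall of Cfd with HFD in WT mice therefore stood beside a higher marker sum. That sum is weighted to its high genes, which rose unequally with HFD in WT mice. Plin4 went from 46426 and 67286 to 104094 and 104425, and Lep from 10493 and 19324 to 72885 and 73642. Fabp4 went only from 55168 and 49480 to 64916 and 56520. Cfd was 42.2% and 39.3% of the sum in WT mice on SD and 9.004% and 8.971% on HFD. Between genotypes on HFD the KO values of 8.33% and 14.3% lay on both sides of the WT values, whereas C4b, with 4.11% and 4.17% of the sum in WT mice against 3.37% and 3.58%, stayed below. C3 did not follow this sum, with 1.65% and 1.75% of it in WT mice on HFD against 11.2% and 34.3% in KO mice. The part of the markers in the Cfd, C4b and Cfb differences between genotypes was not tested.

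The 12 macrophage markers summed to 5922 and 5881 in WT mice on SD, 28786 and 16530 in KO mice on SD, 3418 and 3584 in WT mice on HFD and 30322 and 28973 in KO mice on HFD. In KO mice 10 of 12 were higher on HFD (median 4.13) and 9 of 12 on SD (median 2.06), and 10 of 12 fell with HFD in WT mice, of which 1 was called with the WT HFD libraries averaged. Cfp kept between 1.39% and 2.82% of this sum in all libraries while its own level spanned 57 to 582. It was 1.67% and 1.79% in WT mice on HFD against 1.87% and 1.78% in KO mice. These shares depend on the make-up of the sum, whose genes moved unequally. On HFD Lyz2 was at 625 and 578 in WT mice against 10872 and 9376 in KO mice. Mertk, the highest of the 12 in WT mice on HFD, was at 1238 and 1291 against 986 and 1195. Whether Cfp follows macrophage content was not tested. C3 was between 85.4% and 376% of the macrophage sum and was lower relative to it in KO libraries on both diets. Of the 12 fibroblast and progenitor markers, which mark cells that also make C3, C1r and C1s, 8 were higher and 1 lower in KO mice on HFD, with sums of 88167 and 90227 against 48400 and 48829. Mesothelial markers summed to 185 to 750, lymphocyte markers to 22 to 135 and neutrophil markers to 12 to 95 in the 8 libraries, and endothelial markers to 13701 to 31949 with 3 of 8 higher in KO mice on HFD. Whether these cells account for the higher C3 and Cfp was not tested.

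**Figure D3:**
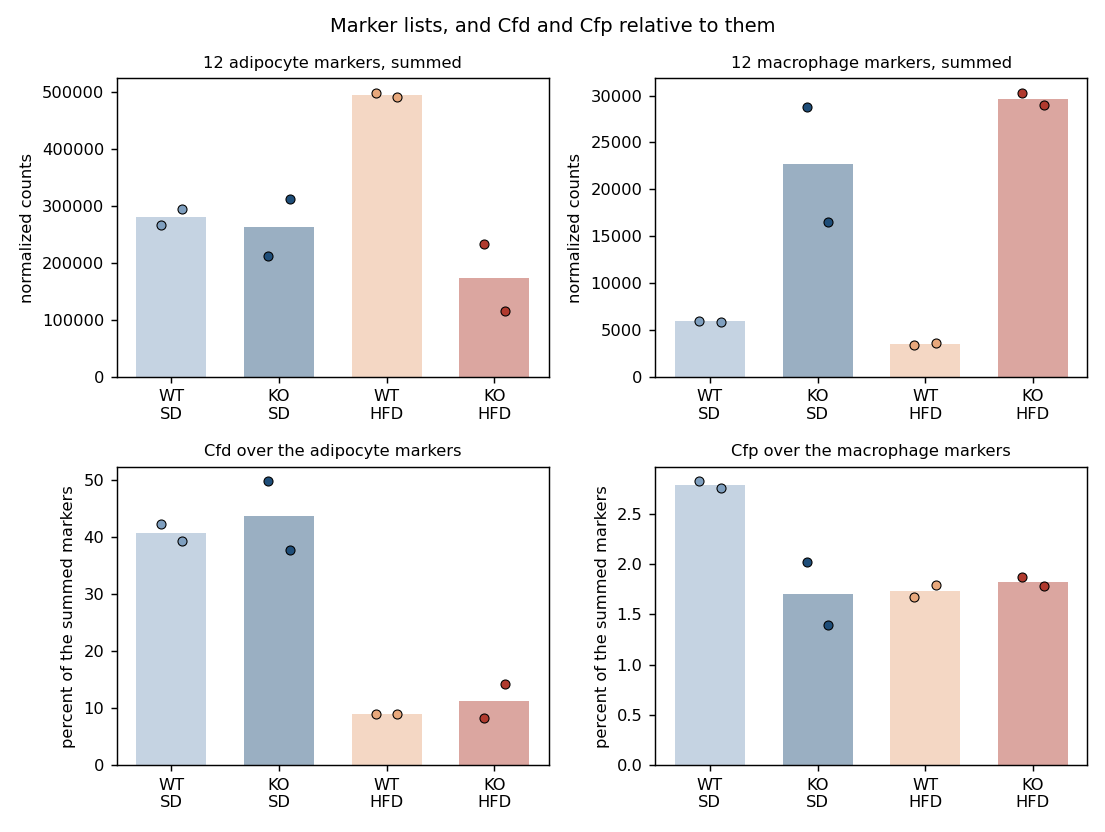
Top, the summed normalized counts of the 12 adipocyte and 12 macrophage markers. Bottom, Cfd as a percent of the adipocyte sum and Cfp as a percent of the macrophage sum, with 1 point per library and bars at the mean of 2, all axes from 0. Cfd lies between 37.7% and 49.8% on SD and between 8.33% and 14.3% on HFD, while Cfp stays between 1.39% and 2.82%.

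The rest of the pathway was read from lists of starters, terminal components, regulators and receptors. For the counts of all these lists, the shares over all genes tested were 17.1% higher and 15.1% lower in KO mice on HFD. On SD 4.71% of all genes were called in either direction. Among the molecules that start complement, 10 of 16 were tested, and 5 were higher and 1 lower in KO mice on HFD (median 1.08), against 4 higher and none lower on SD (median 0.69). The chains of C1q, which macrophages are known to make, led them. C1qb stood at 125 and 119 in WT mice on HFD against 3199 and 2358 in KO mice (log2 difference 4.48, standard error 0.27, adjusted p = 2.2e-07) and at 334 and 310 against 2286 and 1166 on SD (2.34, adjusted p = 0.00021). The collectin Colec12 was higher by 1.41 on HFD and 1.51 on SD, with an interaction of -0.11 (adjusted p = 0.78). C1rl, a protease related to C1r, was lower on HFD, at 125 and 83 against 250 and 376 (-1.58, adjusted p = 0.0017).

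Of the terminal components, which assemble into the pore, 4 of 7 were tested, and C6 and C7 moved in opposite directions. C7 had 2927 and 3656 in WT mice on SD, 3441 and 2967 in KO mice on SD, 546 and 513 in WT mice on HFD and 3951 and 6757 in KO mice on HFD. WT mice on HFD stood apart from the other groups, and C7 was 9.75-fold higher in KO mice on that diet (3.28, standard error 0.22, adjusted p = 4.7e-07). C6 had 1023 and 1101, 1447 and 2542, and 1539 and 1504 in the same order and 376 and 256 in KO mice on HFD, which were lower by 2.29 (standard error 0.25, adjusted p = 2.3e-05). The interactions were 3.32 for C7 (adjusted p = 0.00044) and -3.14 for C6 (adjusted p = 0.0012), and both were called with the WT HFD libraries averaged.

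Of the regulators, which keep complement from acting on host cells, 9 tested genes are reported here, and 1 was higher and 4 lower in KO mice on HFD (median -0.40), or 1 and 2 with the WT HFD libraries averaged, without Cd55 and the low gene Cd59b (adjusted p = 0.12 for each), while limma called none on SD (median -0.45, with 3 at an unadjusted p under 0.05). Cd59a, whose product blocks the pore at the membrane, had 831 and 1246 in WT mice on SD, 703 and 841 in KO mice on SD, 3500 and 3652 in WT mice on HFD and 615 and 322 in KO mice on HFD. HFD raised it in WT mice by 1.81 (adjusted p = 0.0012), and on HFD it was 8.02-fold lower in KO mice (-3.00, standard error 0.27, adjusted p = 4.9e-06). Clu, clusterin, a soluble inhibitor of the pore, was at 300 and 297 there against 1991 and 1880 in WT mice (-2.69, standard error 0.18, adjusted p = 4.1e-07). Cd55, which takes the C3-cleaving enzymes apart, was at 515 and 385 against 684 and 720 (-0.66, adjusted p = 0.02). Vtn, vitronectin, was called for HFD in WT mice alone among the 4 comparisons, at 120 and 100 against 267 and 296 (-1.35, adjusted p = 0.0069), a call that was lost with the WT HFD libraries averaged (adjusted p = 0.064).

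The receptors for complement fragments were all 10 tested, and 7 were higher and none lower in KO mice on HFD (median 3.89), and 6 higher on SD (median 2.16). C3ar1, the receptor for C3a, stood at 135 and 178 in WT mice on HFD and at 3594 and 2949 in KO mice, 20.9-fold higher (4.38, adjusted p = 6.4e-08), and at 345 and 287 against 2015 and 1379 on SD (2.40, adjusted p = 3.9e-05). C5ar1, the receptor for C5a, was 16.3-fold higher on HFD (4.02, adjusted p = 1e-06). Itgb2, the shared chain of complement receptors 3 and 4, was 21.5-fold higher (4.43, adjusted p = 2.3e-08), and its partner Itgam is itself on the macrophage list. Cd93 was higher by 0.87 on HFD (adjusted p = 0.0059), with an adjusted p of 0.058 when the WT HFD libraries were averaged. On SD Cd93 differed by -0.09 (adjusted p = 0.88). The part of the macrophage sum in the receptor differences was not tested.

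**Figure D4:**
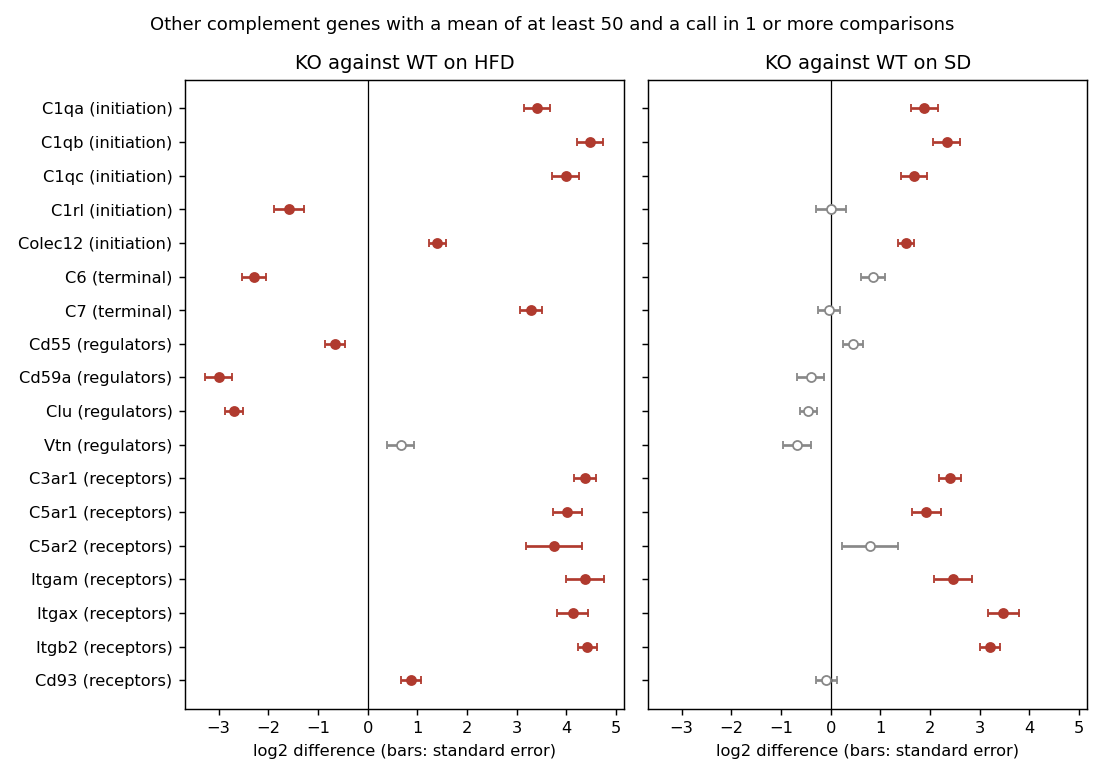
Log2 differences between KO and WT mice (horizontal axis, bars show 1 standard error) of 18 other complement genes with a mean of at least 50 and a call in 1 or more comparisons, on HFD at left and SD at right, with filled points for calls. The receptors and C1q chains lie to the right of 0 on both diets save for Cd93 on SD (-0.09), whereas Cd59a, Clu, C6, C1rl and Cd55 are called to the left of 0 on HFD.

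Across the 8 libraries the 9 genes fell into no single pattern. On the log2 scale Cfp followed C3 (Pearson r = 0.926), and C4b followed Cfd (r = 0.870) and Cfb (r = 0.874) and ran against Serping1 (r = -0.905), over 8 libraries that share 4 groups, so these are descriptions without a test. Among the 12092 genes that averaged 50 or more, the gene most like Cfd was Gucd1 (r = 0.983), followed by Prlr (r = 0.979) and Ubn2 (r = 0.970), and only 8 genes exceeded 0.95. Close to C4b were Lman2l and Ivd (0.986 and 0.984), to Cfb Trabd2b, Fut8 and Lama4 (0.989 to 0.984), and to C2 Slc22a23, Gm44699 and Slc43a1 (0.977 to 0.958). C3 was most like A630001G21Rik, AI607873 and A930004J17Rik (0.988 to 0.987). Cfp was most like Tcirg1, Plekhn1 and Nfkbie (0.994 to 0.993) and had 284 genes above 0.95, against 107 for C3, 5 for C1s1 and 2 for C1ra. C1s1 was most like Sf3b1, Kctd10 and Nfatc1 (0.973 to 0.965), C1ra most like Wdr82, Rsbn1 and Gm4707 (0.954 to 0.941) and Serping1 most like Arhgap18, Calm2 and Chid1 (0.970 to 0.959).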

How the data were processed

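RNA-seq of isolated epididymal adipocytes was read from the table of normalized counts that the authors deposited. Per the labels and the study's methods, ribosomal RNA was depleted, libraries were made with a stranded total RNA kit, and single-end reads of 75 bases were trimmed with Reaper, aligned to GRCm38 with STAR 2.5.2b and counted on exons with featureCounts 1.5.1. The deposited values are not raw counts and not a standard unit but a score, made by dividing each library's counts by its size factor (the authors used DESeq2 1.14.1) and rounding. Because the values are normalized, a test on the log scale was used and no count model was run.

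Genes with a mean of at least 5 (18800 of 30387) were fitted with limma 3.58.1 (R 4.3.3, trended eBayes) on log2(value + 1) with 4 group means, 4 residual and 8.59 prior degrees of freedom, and checked on simulated data. All p-values are limma's, with Benjamini-Hochberg adjustment over all genes tested. Fold changes of low genes are understated by the pseudocount. Standard errors come from the spread between libraries. Software was Python 3.11.15 with pandas 2.3.3, numpy 2.4.6 and, for figures, matplotlib 3.10.9.

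The members, gene lists, motifs and limits were chosen with earlier results of these data known. Genes named are the 9 members, Yap1 and Wwtr1, close copies and overlapping genes, other complement genes with a mean of at least 50 and a call, cell markers as lists, and for each member the 3 genes of highest Pearson r, of which 2 genes in all are not reported here. Adipoq is named as the check of the cell type, Plin4, Lep and Fabp4 as high genes of the adipocyte sum, and Lyz2 and Mertk as high genes of the macrophage sum. Exon lengths and shared windows came from GENCODE vM21 (30259 identifiers found) and promoters from RefSeq. Alternatives were pseudocounts of 0.1 and 8, other filters and scalings, a fit of only 2 groups, the replicate block, averaging of the WT HFD libraries and leaving out each library. For the lists of other complement genes, averaging and scaling to the same total were added after seeing the data.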

Additional observations from a re-analysis of the deposited data

Results flagged for a closer look

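For 5 of the 9 genes the effect of losing YAP and TAZ differed between HFD and SD by the interaction test. Cfd was lower by a further 1.28 on the log2 scale on HFD (-1.28) and C4b by a further 1.89 (-1.89). The effect was greater on HFD by 1.35 for C3, by 1.99 for Cfp and by 1.17 for C1ra, whose genotype difference was below 0 on SD and above 0 on HFD. All 5 were called over all genes tested, and no one of them when the closely alike WT HFD libraries were averaged to 1 sample.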

How the results depend on the processing

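The 5 calls between genotypes on HFD numbered 5 to 7 under all alternatives run and no call reversed. Between genotypes on SD the count of 0 became 1 with a mean of at least 50 as the filter and under upper-quartile and quantile scaling (C1ra), and was 0 to 1 with each library left out. For HFD in WT mice the 3 calls became 5 at the same total and 1 with the WT HFD libraries averaged, and 1 to 3 with each library left out. For HFD in KO mice the 3 calls became 1 with no filter and 0 in the fit of the 2 groups compared, and 1 to 4 with each library left out. The 5 interactions became 1 with no filter and 0 with the WT HFD libraries averaged, and 0 to 6 with each library left out. The library without which the count fell lowest was the first WT SD library (1 for HFD in WT mice, and 0 interactions), the second KO library on SD (1 for HFD in these mice), or the second WT HFD library (0 interactions), and without the first WT HFD library 2 interactions were called. Among all genes the calls of these comparisons also fell in these fits and in the averaged fit. With no filter the interactions called went from 3274 of 18800 genes to 721 of 30387, and those for HFD in KO mice from 202 to 3. The fit of the 2 KO groups called 0 of 18800 genes. The cause was not tested, and the fits that left out a library also held fewer samples.

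Scaling to the same total changed the split of all genes called from 3213 higher and 2840 lower to 4618 and 1367 between genotypes on HFD, and from 1643 and 1734 to 470 and 3568 for HFD in WT mice. Replicate numbers do not pair the samples: same-numbered libraries deviated together with correlations of -0.107 to 0.04. With the number as a replicate block, C1ra for HFD in KO mice was the only member call to change (0.89, adjusted p = 0.063), and all genes called there went from 202 to 112. With 2 libraries per group, precision rests on the pooled spread, and at 42 normalized counts Cfb is the member nearest to the limits of depth.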
